A study of Mus musculus with 27 samples.

Results

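The response of bone marrow-derived macrophages (BMDM) to the compound GW was set against that of hepatocytes, as the difference between the GW effect in BMDM and the GW effect in hepatocytes. The comparison used 12 of the 27 poly(A) RNA-seq libraries of the series, 3 in each of 4 groups, all from primary mouse cells. The GW groups were BMDM and hepatocytes kept for 24 h with 1 µM GW, and the vehicle groups were the same cells kept with an equal volume of ethanol. GW is the compound that the labels spell GW3596, GW3964 or GW3965, of which GW3965 is a man-made activator of the liver X receptors. BMDM had been differentiated from bone marrow with M-CSF and were treated in serum-free DMEM/F12 that still held M-CSF, an insulin, transferrin and selenite supplement and fatty-acid-free albumin. Hepatocytes had been plated on collagen and were treated in serum-free Williams' E medium for which the labels name none of these, so that cell type and medium cannot be told apart. The labels give no strain, age or sex, and leave unsaid whether 3 libraries of 1 group stand for separate animals or cultures. The p-values therefore measure the spread between these libraries, which may be technical.

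The liver X receptors, LXRα (Nr1h3) and LXRβ (Nr1h2), are nuclear receptors that bind oxysterols and act with RXR partners. They raise transporters that export cholesterol (Abca1, Abcg1), apolipoproteins and lipid transfer proteins that accept it (Apoe, Apoc1, Pltp), and the lipogenic regulator Srebf1 with its desaturase and synthase targets (Scd1, Fasn). In macrophages they are known for cholesterol efflux and for restraint of inflammatory genes, and in liver for fatty acid synthesis and for the handling of sterols.

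Total counts ranged from 31470464 to 40727673 per library. A count of 0 allows a level of up to 0.0737 to 0.0953 CPM (counts scaled to a common library total), as 3 counts of the library's total, for counting error alone. Marker genes separated the libraries by labelled cell type. The summed level of 14 macrophage markers was 32760 to 34820 CPM in BMDM and 944 to 1019 CPM in hepatocytes, where Cd14 and Cd68 made up most of it and Lyz2, Csf1r, Adgre1 and Tyrobp stayed under 5 CPM in every library. The summed level of the 13 hepatocyte markers found was 12840 to 13320 CPM in hepatocytes and 2.30 to 14.4 CPM in BMDM. Within the hepatocyte libraries Alb averaged 5908 CPM with vehicle, while Cps1 (11.2 CPM) and Asgr1 (17.1 CPM) were low. Vehicle BMDM library 3 and GW hepatocyte library 2 lay farthest from their groups in principal component analysis of their cell types.

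GW changed many more genes in BMDM than in hepatocytes, and the response was called higher in BMDM for 9 of 16 fatty acid synthesis genes and 7 of 20 cholesterol synthesis genes, with none lower. Interferon-stimulated genes fell in BMDM and had no called change in hepatocytes. Of 17575 genes tested with edgeR's quasi-likelihood test, 1373 rose (7.81%) and 1183 fell (6.73%) in BMDM, 14.5% in all, at an adjusted p under 0.05. In hepatocytes 79 rose (0.450%) and 24 fell (0.137%), 0.586% in all. The difference between the responses was called for 1040 genes (5.92%), of which 595 had the higher response in BMDM (3.39%) and 445 the lower (2.53%). Genes measured in both are the 8465 that averaged at least 5 CPM in a treatment group of each cell type. Over them the median standard error of the log2 change was 0.076 in BMDM and 0.075 in hepatocytes. The fit gave each gene 1 spread shared by the cell types, so these values do not compare their precision. Estimated within each cell type alone, the common coefficient of variation between libraries was 0.0827 in BMDM and 0.0655 in hepatocytes. On plain library totals the split of called genes was 419 higher and 614 lower. The median log2 difference of all genes was 0.01 with TMM scaling and -0.04 on plain library totals.

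Within the 8465 genes measured in both, 824 were called for the difference (9.73%), 520 higher (6.14%) and 304 lower (3.59%). Of the 1825 of them called in BMDM (21.6%), 1802 had the larger absolute log2 change there, with a median of 0.318 against 0.058 in hepatocytes. These genes were chosen on their BMDM change, so the sizes describe them and test nothing. Across all 8465 genes the log2 changes in the 2 cell types had a Pearson r of 0.114, given as a description across genes, which are not independent. Few genes moved in both: 42 were called in the same direction and 9 in opposite directions. Of the 42, the change was larger in BMDM for 31, with a median absolute log2 change of 0.931 in BMDM and 0.626 in hepatocytes.

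**Figure D1:**
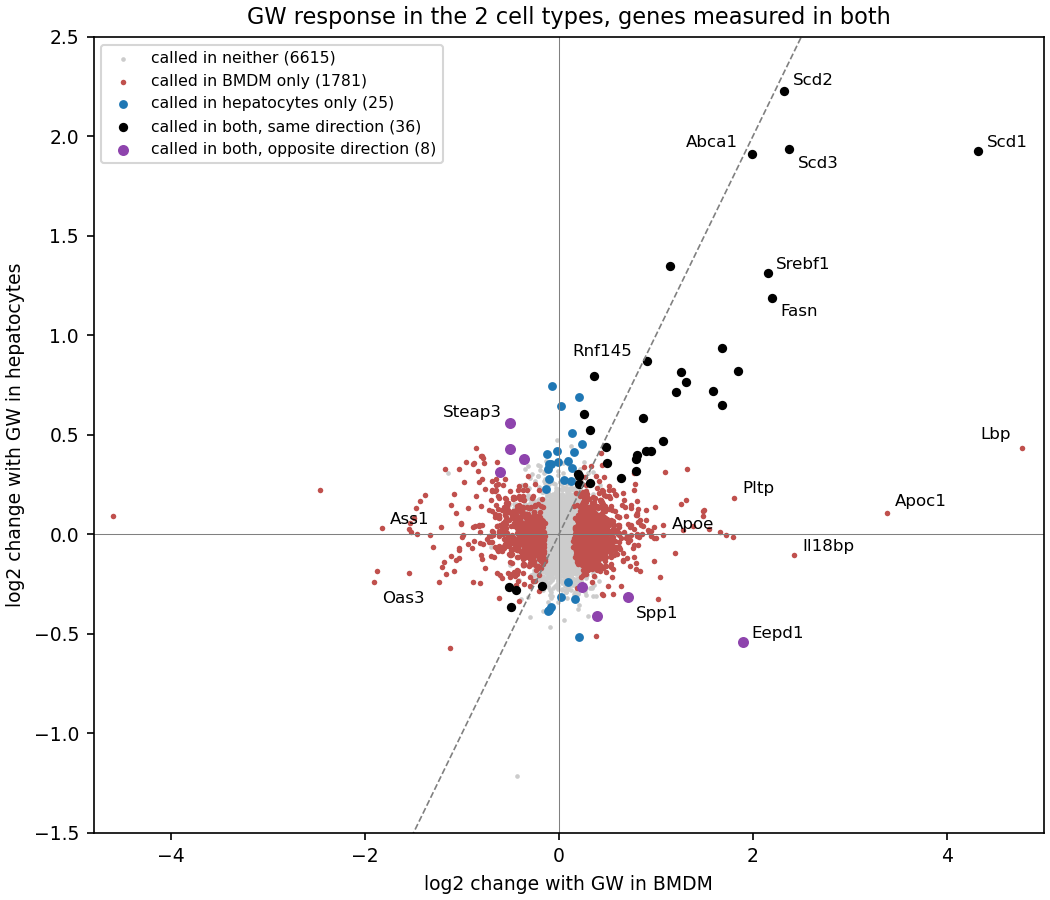
Each point is one of the 8465 genes measured in both cell types, with its log2 change with GW in BMDM on the x axis and in hepatocytes on the y axis; the axes differ in scale and the dashed line marks equal change. The 1781 genes called in BMDM only spread along the x axis near 0 in hepatocytes, 36 genes called in the same direction lie in the upper right and lower left, and 8 genes called in opposite directions lie in the other quadrants.

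The receptors themselves were present in both cell types and did not pass the test for a difference in response. Nr1h2 (LXRβ; chr7:44549616-44553951, GRCm38) stood at 102 ± 1.62 TPM (a level scaled to transcript length; SD, n = 3) in vehicle BMDM and 117 ± 7.16 TPM in vehicle hepatocytes. Nr1h3 (LXRα; chr2:91184061-91202834) stood at 116 ± 5.57 TPM in vehicle BMDM and 65.5 ± 1.67 TPM in vehicle hepatocytes. With GW, Nr1h3 had a log2 change of 0.12 ± 0.06 (SE) in BMDM and -0.10 ± 0.06 in hepatocytes, and the difference was not called (adjusted p = 0.109, edgeR; 95% interval 0.05 to 0.39). It was called by DESeq2, at a log2 difference of 0.24 and an adjusted p of 0.041. Of the 10 receptors and cofactors, 2 rose in BMDM (7.81% of all genes rose there) and none was called in hepatocytes (0.586% of all genes). The difference was called for 1 of the 10, beside 5.92% of all genes. It was Ncoa2, a coactivator, which rose by 0.30 ± 0.07 in BMDM and changed by -0.14 ± 0.07 (adjusted p = 0.791, edgeR) in hepatocytes.

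Of 21 LXR target genes listed, 19 were tested. In BMDM 14 rose (7.81% of all genes) and none fell, and in hepatocytes 9 rose (0.450% of all genes) and none fell. The response was called higher in BMDM for 9 of the targets and lower for 2 (3.39% and 2.53% of all genes). Their median log2 change was 1.15 in BMDM and 0.72 in hepatocytes, against 0.00 and -0.01 over all genes tested. Apoc2 and Cyp7a1, the rate-limiting enzyme of bile acid synthesis, were at or under the 3-count level in every library of either cell type and were not tested.

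Abca1, which loads cholesterol onto apolipoprotein A-I (chr4:53030787-53159895), had a response of like size in both. It read 571, 653 and 683 CPM in the vehicle BMDM libraries and 2394, 2443 and 2766 CPM with GW. In hepatocytes it read 48.3, 54.9 and 55.4 CPM with vehicle and 204, 191 and 202 CPM with GW. The groups did not overlap in either cell type. The log2 change, the scale of every change given here, was 1.99 ± 0.07 in BMDM and 1.91 ± 0.07 in hepatocytes, and the difference of 0.08 was not called (adjusted p = 0.69, edgeR), with a 95% interval of -0.12 to 0.28. Scd2, a stearoyl-CoA desaturase of extrahepatic tissues, and Rnf145, a ubiquitin ligase of the sterol pathway, also had called rises in both. Scd2 rose by 2.33 in BMDM and 2.23 in hepatocytes (interval of the difference -0.35 to 0.55), from mean vehicle levels of 514 and 2.47 CPM. Rnf145 rose by 0.91 and 0.87 (interval -0.14 to 0.21).

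Abcg1, the partner transporter that passes cholesterol to lipoproteins, had the larger log2 change in hepatocytes, from a level near the detection limit. It read 0.127, 0.0912 and 0.139 CPM in the vehicle hepatocyte libraries and 2.03, 1.69 and 2.5 CPM with GW, against 455, 459.8 and 435 CPM and 1015, 959.6 and 1021 CPM in BMDM. The log2 change was 1.15 ± 0.05 in BMDM and 4.09 ± 0.23 in hepatocytes (adjusted p of the difference = 4.38e-08, edgeR), while the GW level in hepatocytes stayed far under the vehicle level in BMDM. Of the 14 macrophage markers 0 were called in hepatocytes, beside 0.586% of all genes, and 2 had an unadjusted p under 0.05 (edgeR). Of these markers, Lyz2 read 3.44, 4.49 and 4.09 CPM in vehicle hepatocytes and 4.28, 2.6 and 4.58 CPM with GW. Csf1r read 0.276, 0.98 and 0.532 CPM and 0.577, 0.59 and 0.298 CPM. Lpl, lipoprotein lipase, was the other target with the lower BMDM response: it rose in hepatocytes from 1.83, 2.03 and 2.54 CPM to 5.52, 3.14 and 5.62 CPM, and in BMDM, where the vehicle mean was 8730.4 CPM, its change of 0.18 was not called (adjusted p = 0.214, edgeR). Mylip, a ubiquitin ligase of lipoprotein uptake, rose by 1.27 in BMDM. In hepatocytes it stayed under 0.3 CPM, and its change there was not called (adjusted p = 0.0602, edgeR).

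The secreted lipid carriers Apoe, Apoc1 and Pltp rose in BMDM and had no called change in hepatocytes. Apoe read 16976, 18309 and 18218 CPM in vehicle BMDM and 36069, 37384 and 39177 CPM with GW. In hepatocytes it read 5912, 5246 and 5676 CPM with vehicle and 5608, 5396 and 5797 CPM with GW, and these ranges overlap. The difference in log2 change was 1.08 ± 0.08 (adjusted p = 8.48e-10, edgeR). Apoc1 rose in BMDM from 0.857, 0.917 and 0.906 CPM to 8.77, 9.91 and 9.24 CPM, while hepatocytes read 523, 533 and 556 CPM and 568, 595 and 576 CPM, groups that lie close and do not overlap (difference 3.27 ± 0.13, adjusted p = 2.57e-15, edgeR). Pltp, the phospholipid transfer protein, rose by 1.81 in BMDM and changed by 0.18 in hepatocytes (adjusted p = 0.657, edgeR), from vehicle means of 638 and 12.7 CPM. Lpcat3, which puts polyunsaturated chains into phospholipids, rose in both, by 1.59 ± 0.06 in BMDM and 0.72 ± 0.06 in hepatocytes, and the difference was called (adjusted p = 4.96e-07, edgeR). Mertk, a receptor for dying cells, and Cd5l, a secreted scavenger protein, rose by 1.15 and 2.12 in BMDM. In hepatocytes, where both stayed under 4 CPM, they changed by 0.17 and 0.75 without a call.

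**Figure D2:**
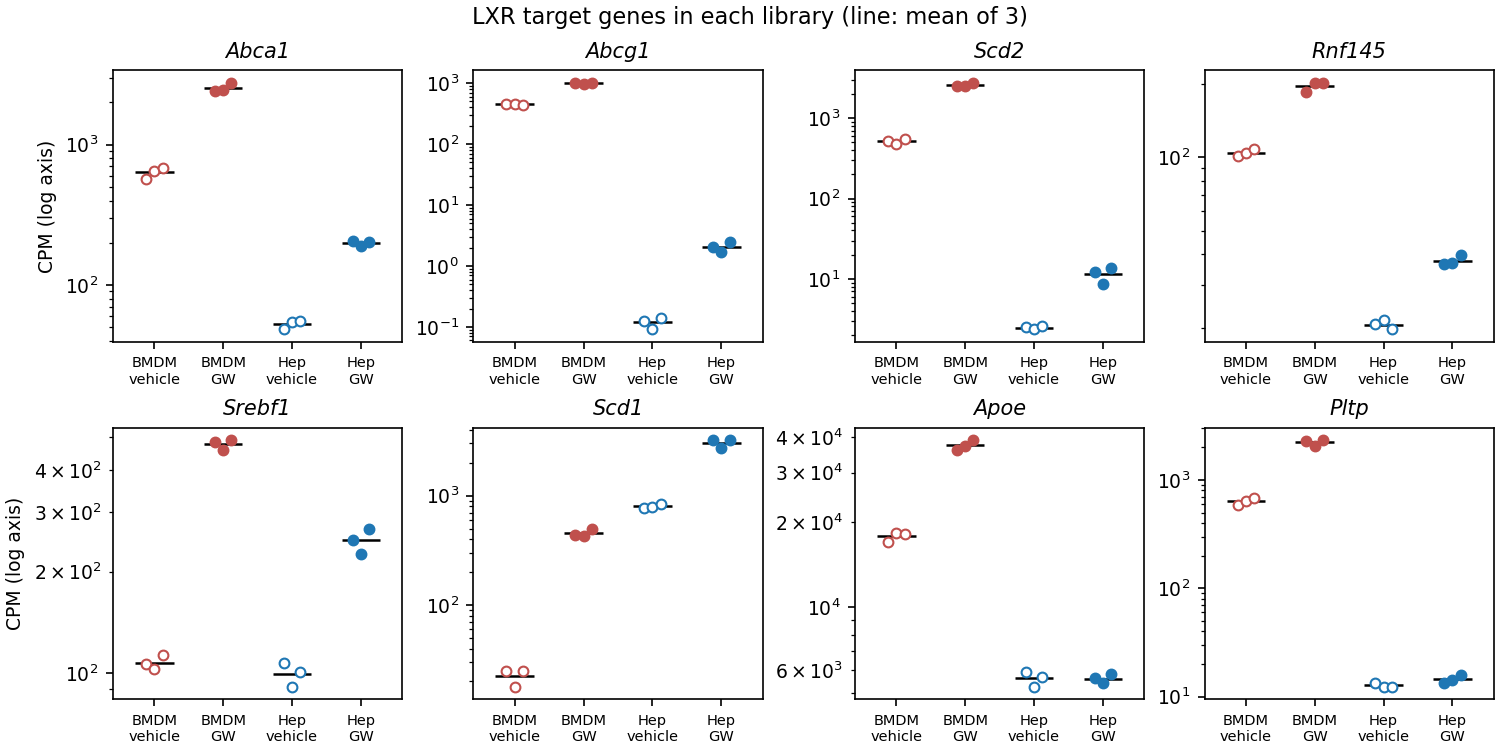
CPM on a log axis in each of the 12 libraries for 8 LXR target genes, with open points for vehicle, filled points for GW and a line at the mean of 3; the y axes differ between panels. Abca1, Scd2 and Rnf145 rise by like factors in both cell types, Abcg1 rises from a mean of 0.119 to 2.07 CPM in hepatocytes, and Apoe and Pltp rise in BMDM with hepatocyte groups that overlap or nearly do.

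Some fatty acid synthesis genes rose in both cell types, and the response was often higher in BMDM. Of 16 listed and tested, 11 rose in BMDM (7.81% of all genes) and 6 rose in hepatocytes (0.450% of all genes). For 9 the response was higher in BMDM (3.39% of all genes), with none lower. The list's median log2 change was 0.45 in BMDM and 0.27 in hepatocytes. Srebf1, the transcription factor that drives the pathway, read 106, 103 and 113 CPM in vehicle BMDM and 484, 460.0 and 492 CPM with GW. In hepatocytes it read 107, 91.3 and 101 CPM and 249, 226 and 268 CPM. The vehicle groups overlapped between cell types and the GW groups did not, and the difference in log2 change was 0.84 ± 0.09 (adjusted p = 8.60e-07, edgeR).

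Scd1, the stearoyl-CoA desaturase of liver (chr19:44394455-44407879), read 24.8, 17.9 and 25 CPM in vehicle BMDM and 440.1, 425 and 497 CPM with GW, and 773, 794 and 847 CPM and 3214, 2713 and 3240.3 CPM in hepatocytes. The log2 change was 4.33 ± 0.12 in BMDM and 1.92 ± 0.10 in hepatocytes (difference 2.40, adjusted p = 2.66e-07, edgeR). Every hepatocyte library, vehicle included, read higher than every GW BMDM library. Scd1, Scd2 and Scd3 are close copies, and how reads that fit several of them were counted is not given in the sources used here. Fasn, fatty acid synthase, rose by 2.19 in BMDM and 1.19 in hepatocytes, from like vehicle means of 75.5 and 61.8 CPM. Acaca, which makes malonyl-CoA, rose by 1.31 and 0.76, and Fads2, a desaturase of polyunsaturated chains, by 1.85 and 0.82. Acly, which supplies acetyl-CoA from citrate, rose by 0.44 in BMDM and changed by 0.05 in hepatocytes without a call. Acss2 and Elovl6 were called in neither cell type.

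Acsl3, an acyl-CoA synthetase of lipid droplets, and Lpin1, a phosphatidate phosphatase of triglyceride synthesis, followed the same pattern. Acsl3 rose by 1.68 in BMDM and 0.94 in hepatocytes, and Lpin1 by 1.07 and 0.47, with both differences called (adjusted p = 1.09e-04 and 2.99e-04, edgeR). Lipn, a lipase family gene, rose by 1.14 and 1.35, and Scd3 by 2.37 and 1.93, with intervals of the difference of -0.65 to 0.24 and -0.01 to 0.89. Plin2, a lipid droplet coat protein, rose by 0.40 in BMDM and changed by 0.07 in hepatocytes without a call, a called difference (adjusted p = 0.00345, edgeR). Idh1, a source of NADPH, rose by 0.59 in BMDM, and its hepatocyte change of 0.20 was not called (adjusted p = 0.0748, edgeR). Among the 18 genes measured in both that were called in both in the same direction and for the difference, the change was larger in BMDM for 16; the others were the fatty acid and retinoid genes Fabp5 and Dhrs3, named after their values were seen.

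Cholesterol synthesis enzymes had called rises in BMDM. Of 20 enzymes, 11 rose in BMDM (7.81% of all genes rose there). None was called in hepatocytes, near the 0.586% of all genes called there. For 7 the response was higher in BMDM (3.39% of all genes), all with edgeR. The count of 7 was 4 without GW BMDM library 3 or without vehicle BMDM library 2. In hepatocytes 3 of the 20 had an unadjusted p under 0.05, and DESeq2 and limma-voom called 0. The median log2 change was 0.27 in BMDM and 0.05 in hepatocytes. Lss, lanosterol synthase, rose by 0.80 in BMDM and changed by 0.09 in hepatocytes, and Acat2, of the first step of the pathway, by 0.60 and 0.02. Lss read 28.4, 26 and 31.1 CPM in vehicle BMDM and 49, 48.8 and 51.5 CPM with GW, with no overlap. In hepatocytes it read 38.7, 36.5 and 36.9 CPM and 38.5, 38.2 and 43.2 CPM, which overlap. The difference in log2 change was 0.71 ± 0.11 (adjusted p = 9.04e-05, edgeR).

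Cyp51, lanosterol demethylase, rose by 0.28 in BMDM and changed by -0.04 in hepatocytes (difference 0.32, adjusted p = 0.0188, edgeR). That call was lost without GW BMDM library 3 (0.29, adjusted p = 0.075) and without vehicle BMDM library 2 (0.26, adjusted p = 0.085). Msmo1 and Sqle, of the same pathway, were called in neither. Insig1, which holds the SREBP complex in the endoplasmic reticulum, rose in both, by 0.89 in BMDM and 0.42 in hepatocytes. With all 27 libraries in the fit, 2 synthesis enzymes were called, and the calls of Insig1 (adjusted p = 0.0839) and Cyp51 (adjusted p = 0.319) were lost, with log2 differences of 0.48 and 0.33.

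The 10 largest called higher responses of BMDM, ranked among genes measured in both, held genes outside the lipid lists. Of these 10, Lbp, Apoc1, Paqr9 and Vegfa reached the 5 CPM level in BMDM only with GW, so that the change itself let them into the ranking. Lbp, the lipopolysaccharide-binding protein of the acute phase, had a log2 difference of 4.34 ± 0.35 (adjusted p = 1.06e-08, edgeR). It read 0.236, 0.00 and 0.388 CPM in vehicle BMDM and 6.2, 6.41 and 5.04 CPM with GW, and 13.3, 14.1 and 13.4 CPM and 17.7, 19 and 18.4 CPM in hepatocytes. Il18bp, a secreted inhibitor of interleukin-18, read 12.5, 9.44 and 10.4 CPM in vehicle BMDM and 55.6, 60.1 and 58.8 CPM with GW. In hepatocytes it read 27.2, 30.9 and 22.2 CPM and 22.3, 27.2 and 25.2 CPM, so that the groups overlap there (difference 2.53 ± 0.16, adjusted p = 2.24e-10, edgeR).

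Smpd3, a neutral sphingomyelinase, rose by 1.72 in BMDM and changed by 0.00 in hepatocytes. Abcc3, an exporter of conjugated anions, rose by 1.66 in BMDM from a vehicle mean of 121 CPM to 381 CPM, close to the hepatocyte means of 406 and 409 CPM. Vegfa, the vascular growth factor, and Paqr9, a progestin and adiponectin receptor family member, rose by 1.55 and 1.79 in BMDM and changed by 0.02 and -0.01 in hepatocytes. All 4 differences were called (adjusted p from 9.85e-09 for Smpd3 to 8.28e-06 for Paqr9, edgeR), and the hepatocyte vehicle and GW groups overlapped for each.

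The 10 largest called lower responses were ranked in the same way, among genes measured in both, and larger called values outside that limit, such as those of Abcg1 and Acod1, are left out of it. Ass1, Ifi44, Iigp1 and Rpsa-ps9 reached the 5 CPM level only through 1 treatment group of a cell type. Ass1, argininosuccinate synthase of the urea cycle, had a difference of -1.86 ± 0.26 (adjusted p = 9.00e-04, edgeR). It read 11.1, 7.95 and 15.1 CPM in vehicle BMDM and 3.9, 3.04 and 2.72 CPM with GW, and 84.2, 74.3 and 76.6 CPM and 83.6, 73.5 and 83 CPM in hepatocytes. The groups separated in BMDM and overlapped in hepatocytes. Ass1 also made up most of the hepatocyte marker sum in BMDM, which was 7.08 to 14.4 CPM with vehicle and 2.30 to 3.31 CPM with GW. Rpsa-ps9, a pseudogene of a ribosomal protein whose reads may not be told from its parent's, had a difference of -1.32 ± 0.28. The other 8 of these 10 genes measured in both are known as genes induced by interferon: Ifi44, Oas3, AW112010, Iigp1, Ly6e, Oasl2, Rtp4 and Zbp1.

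Interferon-stimulated genes, which are switched on after interferon and encode antiviral proteins, fell in BMDM and had no called change in hepatocytes. Of 21 listed and tested, 18 fell in BMDM (6.73% of all genes fell there) and none rose. None was called in hepatocytes, near the 0.586% of all genes called there. For 13 the response was lower in BMDM (2.53% of all genes), all with edgeR. In hepatocytes 2 of the 21 had an unadjusted p under 0.05, DESeq2 called 1 higher and limma-voom called 0. The median log2 change was -1.03 in BMDM and -0.05 in hepatocytes, and the median difference was -1.16. Oas3, an oligoadenylate synthetase, read 46.3, 28.3 and 41.2 CPM in vehicle BMDM and 11, 8.9 and 11 CPM with GW. In hepatocytes it read 11.4, 17.7 and 11.6 CPM and 8.23, 13.8 and 12.5 CPM. The BMDM groups did not overlap, the hepatocyte groups did, and the difference was -1.67 ± 0.36 (adjusted p = 0.0222, edgeR).

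Isg15, a ubiquitin-like protein, read 22.2, 14.5 and 19.3 CPM in vehicle BMDM and 9.29, 6.14 and 7.4 CPM with GW, while hepatocytes read 258, 252 and 247 CPM and 218, 270.1 and 235 CPM (difference -1.24 ± 0.21, adjusted p = 0.00588, edgeR). Vehicle BMDM library 2 had the lowest vehicle level of Oas3, Isg15, Ly6e, Oasl2, Rtp4 and Zbp1. Hepatocytes held the higher vehicle level of Isg15, Usp18, Rsad2 and Ly6e, and BMDM that of Oas3 and Oasl2. Ifit1, Ifit2, Ifit3 and Irf7 fell in BMDM, and their differences were not called (adjusted p from 0.0628 to 0.118, edgeR). Mx1 had a called difference of -1.91 ± 0.42 with neither of its own changes called, -0.73 in BMDM and 1.18 in hepatocytes, where it read 0.701, 0.342 and 0.277 CPM with vehicle and 0.684, 1.37 and 1.01 CPM with GW.

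**Figure D3:**
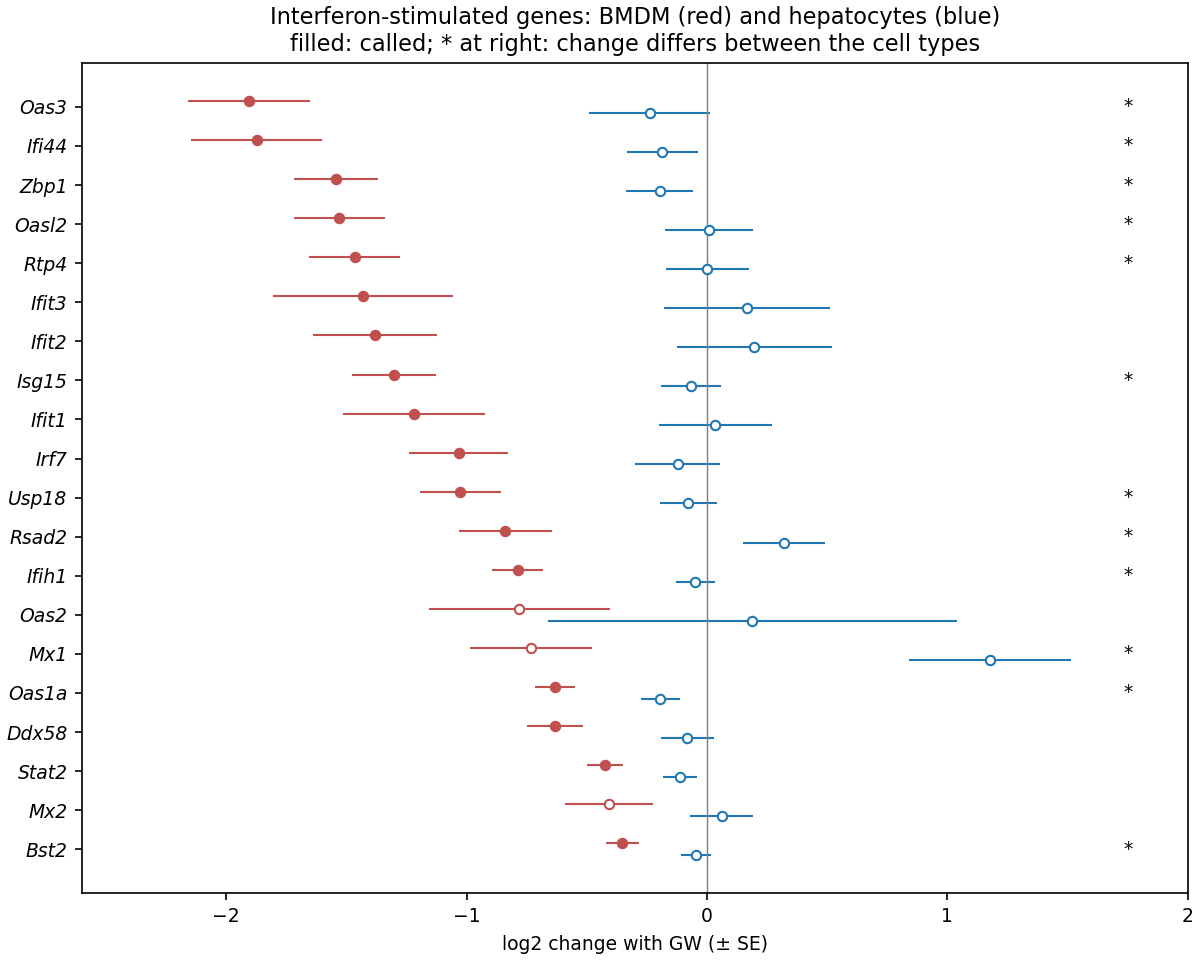
Log2 change with GW, with its SE, for 20 of the 21 interferon-stimulated genes in BMDM (red) and hepatocytes (blue); filled points passed the test and a star marks a called difference between the cell types. All 20 BMDM points lie under 0, 17 of them filled, and no hepatocyte point is filled.

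How many of these differences were called changed with the libraries in the fit. Leaving out 1 of the 12 libraries gave 9 (without GW BMDM library 3) to 18 lower responses. With all 27 libraries in the fit 1 of the 21 was called, at a median difference of -1.15. With all but saringosterol BMDM library 3, an alternative chosen after seeing the data, 17 were called at the same median. Other measures moved with GW in BMDM: mitochondrial transcripts were 0.512% to 0.625% of counts with vehicle and 0.370% to 0.454% with GW, and the summed level of 7 neutrophil and progenitor markers was 63.3 to 74.0 CPM with vehicle and 37.2 to 45.8 CPM with GW. Stellate cell and fibroblast markers, 10 in number, summed to 3.79 to 4.81 CPM with vehicle and 1.95 to 3.09 CPM with GW. The part of these in the result was not tested, and in bulk RNA fewer cells of a type and less RNA per cell cannot be told apart.

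The interferon-stimulated response element was searched in the promoters of these genes. The motif was GAAANNGAAA on both strands, in RefSeq windows of 300 bases around each gene's start (GRCm38.p6). Of the 21 listed genes, 14 had a window, and the motif was in 10 of these 14. Counted by window, it was in 10 of their 15 windows and in 3.44% of all 32851 windows. These 4 stretches are shown 5′ to 3′ on the gene's strand because their genes are among the 13 with the lower response in BMDM; capitals mark the motif or a run of overlapping matches, and TTTCNNTTTC is the same motif on the other strand.
Isg15 (chr4:156200850-156200921, minus strand): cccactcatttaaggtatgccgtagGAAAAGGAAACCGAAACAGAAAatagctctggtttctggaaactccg
Oas3 (chr5:120777700-120777759, minus strand): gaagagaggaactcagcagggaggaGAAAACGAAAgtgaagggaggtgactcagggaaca
Oas1a (chr5:120907505-120907570, minus strand): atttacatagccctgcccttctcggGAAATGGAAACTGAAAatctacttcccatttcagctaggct
Rsad2 (chr12:26456538-26456597, minus strand): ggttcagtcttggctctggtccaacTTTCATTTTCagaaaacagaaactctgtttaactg
The Isg15 run begins at position -78 from the gene's first base, the Oas3 match at -75, the Oas1a run at -20 and the Rsad2 match at -120. Changes in these 4 genes in BMDM were -1.30, -1.91, -0.63 and -0.84. In hepatocytes none of the 4 was called with edgeR. Rsad2 read 580, 631 and 586 CPM in vehicle hepatocytes and 646, 852 and 744 CPM with GW. Oas1a read 72.5, 70.6 and 68.3 CPM and 54.2, 67.8 and 62.8 CPM there. For both genes the hepatocyte groups did not overlap, higher with GW for Rsad2 and lower for Oas1a. By contrast the LXR element searched, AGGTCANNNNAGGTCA with up to 2 mismatches, was in none of the 14 LXR targets with a window and in 3.02% of all windows, which says only that these letters are not in these windows.

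Inflammatory mediators were split. Of 18 tested, 6 rose and 5 fell in BMDM (7.81% and 6.73% of all genes). None was called in hepatocytes with edgeR, near the 0.586% of all genes called there. In hepatocytes 3 had an unadjusted p under 0.05 in edgeR, and DESeq2 and limma-voom called 0. The BMDM response was higher for 4 and lower for 2 (3.39% and 2.53% of all genes). The 5 that fell were 3 without GW BMDM library 2 or without GW BMDM library 3. Cxcl1, a neutrophil chemokine, rose in BMDM from 1.11 to 2.61 CPM, and in hepatocytes it averaged 34.9 and 29.2 CPM (difference 1.51 ± 0.21, adjusted p = 3.81e-05, edgeR). Tnfaip3, an inhibitor of NF-κB signalling, rose by 0.73 in BMDM and changed by 0.04 in hepatocytes. Icam1, an adhesion molecule, fell by 0.46 in BMDM and changed by 0.08 in hepatocytes. Acod1, which makes itaconate, fell in BMDM from 3.6 to 0.599 CPM and averaged 0.912 and 1.4 CPM in hepatocytes (difference -3.21 ± 0.65). Nfkbia, the inhibitor induced by NF-κB itself, was called in neither, at 0.03 and 0.01.

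**Figure D4:**
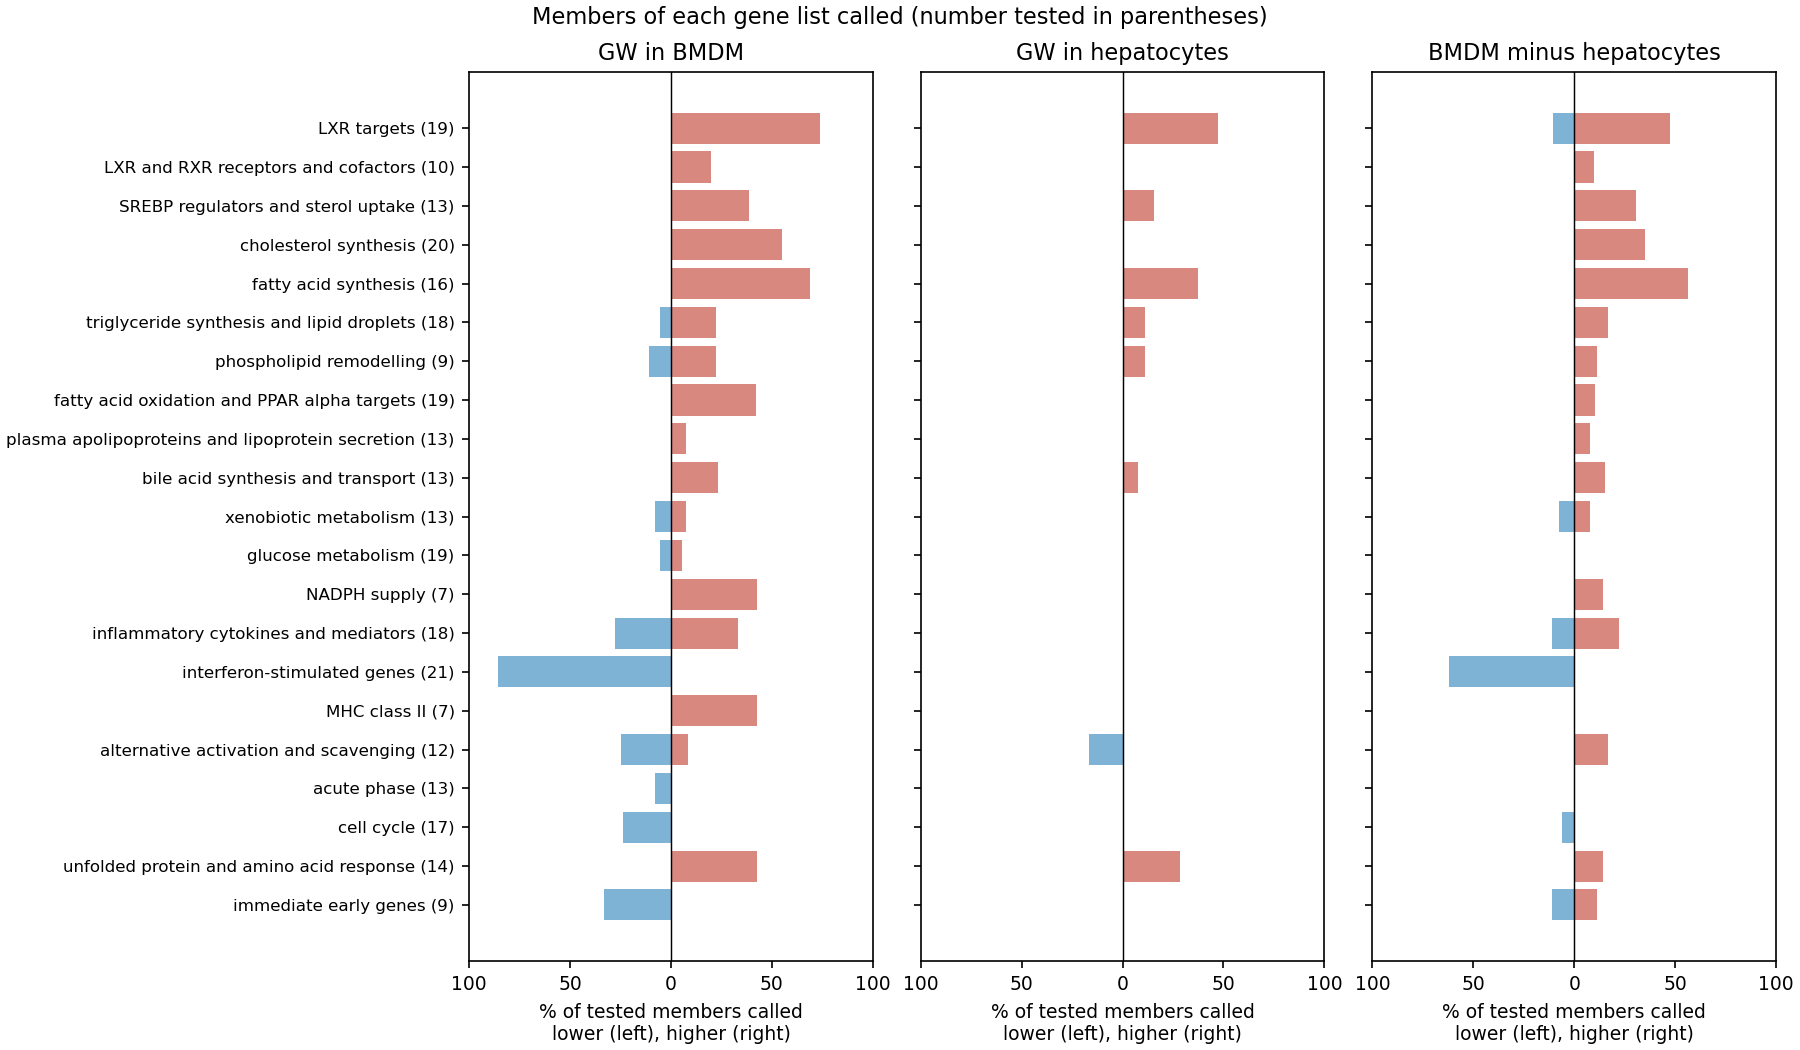
Percent of the tested members of each of 21 gene lists called higher (to the right) or lower (to the left) with GW in BMDM, with GW in hepatocytes and for the difference between them. The bars for BMDM are longest for LXR targets and fatty acid synthesis on the right and interferon-stimulated genes on the left, and most lists have no bar in hepatocytes.

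Genes of fatty acid oxidation and PPARα targets rose in BMDM for 8 of 19 (7.81% of all genes rose there). None was called in hepatocytes with edgeR, near the 0.586% of all genes called there. In hepatocytes 3 had an unadjusted p under 0.05 in edgeR, and DESeq2 and limma-voom each called 1 higher and 1 lower. The count of 8 was 3 without GW BMDM library 3 or without vehicle BMDM library 1, and 5 without vehicle BMDM library 2. Angptl4, a secreted inhibitor of lipoprotein lipase, rose by 0.71 in BMDM and had a change of -0.31 in hepatocytes that was not called (adjusted p = 0.0803, edgeR), a called difference of 1.02. Hadhb, a subunit of the mitochondrial trifunctional protein, rose by 0.38 in BMDM and changed by -0.06 in hepatocytes. Cyp27a1, a sterol hydroxylase, rose by 0.55 and changed by 0.06 (adjusted p of the difference = 0.00162, edgeR). The 13 plasma apolipoprotein and secretion genes included Apob at 969 and 936 CPM in hepatocytes. The calls among the 13 in hepatocytes (edgeR 0, DESeq2 0, limma-voom 0, and 0 at an unadjusted p under 0.05) stand beside 0.586% of all genes called there. Glucose metabolism, 19 genes, had 0 called differences, beside 5.92% of all genes (edgeR; 3 at an unadjusted p under 0.05, and 0 called by DESeq2 or limma-voom).

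Genes called in opposite directions numbered 9, of which 8 were measured in both. Eepd1, an endonuclease family protein that promotes Abca1-dependent efflux in macrophages, led. It read 66.4, 67 and 75.6 CPM in vehicle BMDM and 265, 246 and 269 CPM with GW, and 56, 57 and 56.2 CPM and 41.2, 37.7 and 37.3 CPM in hepatocytes. No groups overlapped within a cell type. The log2 change was 1.90 ± 0.06 in BMDM and -0.54 ± 0.06 in hepatocytes (difference 2.44, adjusted p = 7.23e-16, edgeR).

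Spp1, osteopontin, rose in BMDM from 707, 669.8 and 733 CPM to 1238, 1089 and 1125 CPM and fell in hepatocytes from 384, 397 and 363 CPM to 323, 279 and 315 CPM. Acvr1, an activin and BMP receptor, and Las1l, of ribosome assembly, also rose in BMDM (0.39 and 0.24) and fell in hepatocytes (-0.41 and -0.26). The reverse held for 4: Steap3, a ferrireductase, read 155, 159 and 166 CPM and then 118, 112 and 106 CPM in BMDM, and 48.4, 40.5 and 45.7 CPM and then 65.8, 63.4 and 69.3 CPM in hepatocytes. Slc16a10, a carrier of aromatic amino acids, fell by 0.51 in BMDM and rose by 0.43 in hepatocytes. Slc7a2, a carrier of cationic amino acids, changed by -0.61 and 0.31, and Tsc22d1, a leucine zipper protein, by -0.36 and 0.38. The count was 5 without GW hepatocyte library 1 or without GW hepatocyte library 2 and 14 without vehicle BMDM library 3.

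**Figure D5:**
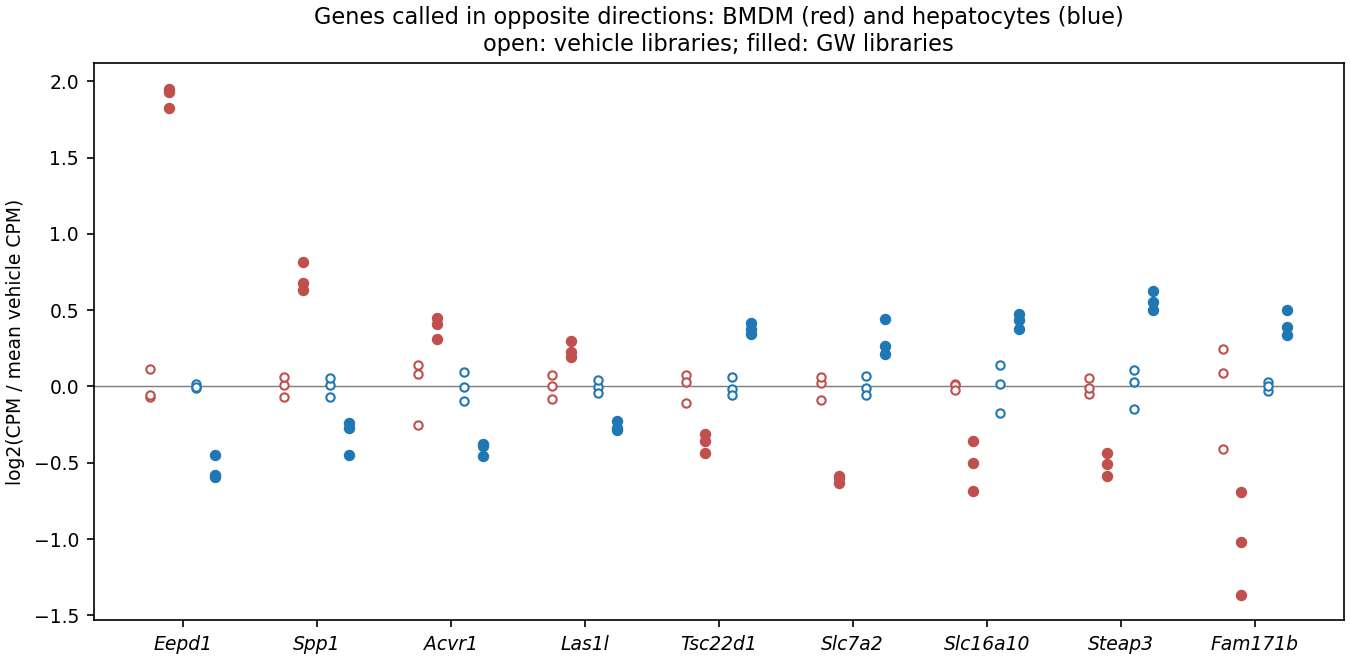
Log2 of each library's CPM over the mean vehicle CPM of its cell type, for the 9 genes called in opposite directions, with open points for vehicle and filled points for GW, BMDM in red and hepatocytes in blue. For each of the 9 genes the filled red and filled blue points lie on opposite sides of 0, and Eepd1, with fitted changes of 1.90 and -0.54, lies farthest apart.

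Genes called higher in hepatocytes and not called in BMDM numbered 37, against 1332 called higher in BMDM alone. Of the unfolded protein and amino acid response, 14 genes, 4 rose in hepatocytes and 6 in BMDM (0.450% and 7.81% of all genes). The 4 were 2 without vehicle hepatocyte library 1. Hspa5, the main chaperone of the endoplasmic reticulum, read 2574, 2774 and 2727 CPM in vehicle hepatocytes and 3135, 3339 and 3298 CPM with GW. In BMDM it read 1308, 1317 and 1418 CPM and 1401, 1349 and 1441 CPM, which overlap, and the difference of -0.22 ± 0.07 was not called (adjusted p = 0.0622, edgeR). Herpud1, of protein degradation at that membrane, rose by 0.41 in hepatocytes, and its change of 0.16 in BMDM was not called (adjusted p of the difference = 0.0685, edgeR). Hsp90b1 and Pdia4, a chaperone and a disulfide isomerase, rose in both, by 0.20 and 0.21 in BMDM and 0.30 and 0.25 in hepatocytes.

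Some genes could be followed in only 1 cell type, since the other held under 0.5 CPM in every library. In BMDM, Il1a, the alarmin interleukin-1α, rose from 1.66, 0.441 and 0.906 CPM to 8.31, 10.3 and 10.5 CPM, and Ccdc148 rose from a mean of 1.19 to 6.61 CPM. Slamf9, H2-M2 and S100a4, a SLAM family receptor, a class I-like molecule and a calcium-binding protein of motile cells, fell, with changes of -1.81, -1.78 and -1.68. In hepatocytes, Krt23, a keratin, rose from 3.91, 3.21 and 3.24 CPM to 5.88, 7.11 and 7.43 CPM, and Derl3 and Mfsd2a, of protein disposal and of lysophospholipid uptake, rose by 0.75 and 0.60. Gjb1, the main gap junction protein of hepatocytes, fell from 106, 89.7 and 104 CPM to 69.9, 65.8 and 70.3 CPM, and Lmcd1, a LIM domain cofactor, fell by 0.64. For these 10 genes no difference in response is given.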

How the data were processed

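Poly(A) RNA of primary mouse cells was sequenced as 27 libraries, of which 12 entered here (vehicle and GW in BMDM and hepatocytes, 3 each). Per the submitters' processing notes the authors used bcl2fastq, STAR 2.5.1a and Subread featureCounts 1.4.6-p5 on GRCm38, and per the labels' protocols the RNA was amplified with an oligo-dT kit. The deposited files give whole-number read counts and TPM per gene. How strand and multi-mapped reads were treated is not given in the sources used here, so overlapping and near-identical genes are uncertain. Their 55774 lines held 55487 gene IDs, of which 168 were repeated with equal values and were used once.

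Counts were tested in edgeR 4.0.16 (R 4.3.3): filterByExpr kept 17575 genes, TMM scaling, 1 mean per group, robust quasi-likelihood F test, Benjamini-Hochberg adjustment over all 17575 genes for each contrast. The contrast was the GW minus vehicle change in BMDM minus that in hepatocytes, beside each change alone. CPM use TMM-scaled totals, except marker sums, which use plain totals. TPM were taken as the authors deposited them. The SE is the log2 change over the root of F. Total counts were 31470464 to 40727673, and no 2 libraries of a group agreed within counting noise. The procedure was tested on simulated data. DESeq2 1.42.0 and limma 3.58.1 were alternatives.

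The 12-library fit leaves out microglia and saringosterol. Named genes were a core set of LXR genes, the 10 largest called differences in each direction, the 8 strongest opposite and 8 strongest same-direction genes (all measured in both cell types), 5 genes seen in only 1 cell type on each side, and from each list up to 4 called and 2 uncalled members. A few genes of the rule are not reported here. Members and lists were chosen with earlier results of these data known.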

Additional observations from a re-analysis of the deposited data

Results flagged for a closer look

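The responses of the cell types differed, by the test of the difference itself, for 1040 of the 17575 genes. Among them, 9 genes were called in both cell types with opposite directions. The log2 difference was 2.44 for Eepd1, 1.03 for Spp1, 0.80 for Acvr1 and 0.50 for Las1l, which rose in BMDM and fell in hepatocytes. It was -0.75 for Tsc22d1, -0.92 for Slc7a2, -0.94 for Slc16a10, -1.07 for Steap3 and -1.42 for Fam171b, which fell in BMDM and rose in hepatocytes. Fam171b averaged 1.12 CPM in vehicle BMDM and 0.56 CPM with GW, against 41.6 and 55.3 CPM in hepatocytes. Groups of 3 libraries were not tested for a single outlying value.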

How the results depend on the processing

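With other tools or spreads the number of called differences (1040) was 1646 with DESeq2 and 1600 with a replicate block within each cell type, and it ranged from 711 to 1525 when 1 library was left out. The hepatocyte count (103) was 187 with 1 fit of 6 libraries per cell type, 179 with DESeq2, 178 with limma-voom and 173 with no filter on low counts, and 68 (without vehicle hepatocyte library 1) to 130 when 1 library was left out; the BMDM count (2556) ranged from 1704 (without GW BMDM library 3) to 2951. The 9 genes of opposite direction became 22 with DESeq2, 14 with limma-voom, 20 with no filter and 19 with the replicate block, and 5 to 14 when 1 library was left out. The 42 of the same direction became 67 with the replicate block and 27 (without vehicle hepatocyte library 1) to 53 when 1 library was left out. The replicate numbers were not taken as pairs: the correlations of same-numbered deviations were 0.0038, -0.0075 and 0.0060 in BMDM and 0.058, 0.095 and 0.025 in hepatocytes. None of the 122 named genes with a value reversed a called difference, while plain library totals turned the sign of the median difference of all genes and the balance of higher and lower calls. Of the 122, 67 had a called difference. Of these, 43 stayed called in every alternative that gave them an adjusted p, and 24 lost the call in at least 1. With 1 fit of 6 libraries per cell type the difference was only subtracted, without a test. That setting and the filter passed in both cell types held 107 of the 122 genes each. The cause of these moves was not tested. With 3 libraries a group, a median SE of 0.107 on the log2 difference limits what could be called, and genes under about 1 CPM rest on few counts.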

Other observations

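MHC class II genes rose in BMDM for 3 of 7 (7.81% of all genes rose), and for 1 of 7 without vehicle BMDM library 2. None of the 7 had a called difference, and 0 had an unadjusted p under 0.05 (edgeR). All 7 averaged under 5 CPM in hepatocytes, with Cd74 at 1.25 to 2.45 CPM and H2-Aa at 0 to 0.342 CPM. At such levels a difference in response could hardly be called, so the lack of calls does not show a shared response. Cell cycle genes fell in BMDM for 4 of 17 (6.73% of all genes fell), and for 2 of 17 without GW BMDM library 3 or without vehicle BMDM library 2, and Ccnd1, a cyclin of the G1 phase, had the called difference, at -0.84 in BMDM and 0.00 in hepatocytes (adjusted p = 0.0333, edgeR). Among 9 immediate early genes 1 difference was called higher and 1 lower (3.39% and 2.53% of all genes). Fos, the lower, fell by 0.81 in BMDM and changed by -0.25 in hepatocytes. Egr1, the higher, read 11.3, 9.2 and 9.13 CPM in vehicle BMDM and 13.2, 10.3 and 12.3 CPM with GW. In hepatocytes Egr1 read 227, 212 and 215 CPM and 179, 176 and 185 CPM, and neither of its own changes was called. Pparg, a lipid-sensing nuclear receptor of macrophages, had a called difference of 0.34 (adjusted p = 0.0202, edgeR) with changes of 0.02 in BMDM and -0.32 in hepatocytes. Por, the electron donor of the cytochrome P450 enzymes, changed by 0.28 and -0.11, and Alas1, of haem synthesis, by -0.32 and 0.05, with differences of 0.39 and -0.37, both called.

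The next 3 genes were named after their values were seen, and the fixed unfolded protein list had 2 differences called in the other direction, 0 in theirs (edgeR; 5 in either direction at an unadjusted p under 0.05; 0 in theirs by DESeq2 and 1 by limma-voom) and a median difference of -0.005. Manf, a stress-induced secreted factor, had changes of -0.11 in BMDM and 0.35 in hepatocytes (difference -0.46, adjusted p = 3.29e-04, edgeR). Creld2 and Sdf2l1, which assist protein folding, had differences of -0.43 and -0.28 (adjusted p = 9.81e-04 and 0.0382, edgeR). Atf4 and Sesn2, of the amino acid response, had differences in the other direction, 0.30 and 0.38.

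Of the 79 genes called higher in hepatocytes, 21 had a vehicle level in BMDM at least 10 times that in hepatocytes. The share of all tested genes with such a level was not computed, so the 21 are given as a description only. Of these 21, 8 also rose in BMDM (7.81% of all genes rose there). Cnr2, a cannabinoid receptor of immune cells, averaged 0.0077 CPM in vehicle hepatocytes and 0.345 CPM with GW, and Lcp1, an actin-bundling protein of blood cells, 70.1 and 90.0 CPM. The macrophage marker sum in hepatocytes was 944 to 1019 CPM with vehicle and 979 to 1015 CPM with GW. In BMDM the 7 endothelial markers summed, on plain totals, to 29.5 to 31.1 CPM with vehicle and 86.3 to 89.0 CPM with GW, and Stab2, a scavenger receptor of liver sinusoids and a mean of 33.6 and then 102 on TMM-scaled totals, made up most of it (log2 change 1.60, adjusted p = 4.99e-13, edgeR). Cholangiocyte markers in hepatocytes summed to 181 to 188 CPM with vehicle and 159 to 166 CPM with GW. Sox9 made up most of this sum, at 153, 147 and 149 CPM and then 124, 128 and 131 CPM on TMM-scaled totals. Krt19 read 7.41, 6.29 and 8.2 CPM and then 8.68, 7.25 and 9.79 CPM. Of the 4 markers tested, 0 were called in hepatocytes and 1 had an unadjusted p under 0.05 (edgeR).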
